A study of Mus musculus with 10 samples.

Results

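The genes described here are 8 that the absorptive cell uses to build lipoproteins: the apolipoproteins Apoa1, Apoa4, Apob, Apoc2 and Apoc3, the lipid transfer protein Mttp, the vesicle GTPase Sar1b and the transcription factor Creb3l3. They were taken by name as a list of lipoprotein assembly genes and make up 8 of the 54838 genes listed for each animal. Expression was measured by sequencing of polyadenylated RNA from intestinal crypts, 1 library per mouse, in 5 WT and 5 Arid3a cKO animals. The cKO mice carried floxed alleles of Arid3a (Arid3a fl/fl), a DNA-binding protein of the ARID family, and 1 copy of VillinCre-ERT2, a recombinase that the Villin promoter drives in epithelial cells and that tamoxifen switches on. Stromal and immune cells therefore kept Arid3a. Both genotypes were given tamoxifen on 3 consecutive days and were analysed 1 month after the first injection, so the drug is shared by the controls. The labels name the controls WT, and their alleles at the floxed locus and of the recombinase, the age of the animals and their sex are not given in the sources used here. Crypts were released with EDTA from jejunum whose villi had been scraped off, a preparation in which upper crypt cells and some villus cells can remain.

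Dietary triglyceride leaves the enterocyte as chylomicrons, large particles that the gut alone makes. In the endoplasmic reticulum, microsomal triglyceride transfer protein, encoded by Mttp, loads lipid onto apolipoprotein B, the scaffold that stays with the particle for life, and apolipoproteins A-I and A-IV join the surface. The full particle travels to the Golgi in a carrier whose budding needs the GTPase SAR1B, and human SAR1B mutations cause chylomicron retention disease. Apolipoprotein C-II is the cofactor that lipoprotein lipase needs in the circulation, apolipoprotein C-III restrains that lipase, and CREB3L3 is a membrane-bound transcription factor of liver and intestine known to drive apolipoprotein genes. In normal tissue these genes are strongest in enterocytes of the villus and weak in the crypt.

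The genes sit at 6 places of the mouse genome (GRCm38), and 3 of them share a cluster. Apoa1 (ENSMUSG00000032083; chr9:46228580-46230466, plus strand), Apoc3 (ENSMUSG00000032081; chr9:46232933-46235636, minus strand) and Apoa4 (ENSMUSG00000032080; chr9:46240696-46243459, plus strand) lie side by side. Apoc2 (ENSMUSG00000002992) lies on the minus strand at chr7:19671579-19677941 in the cluster that also holds Apoc1, Apoc4 and Apoe. Apob (ENSMUSG00000020609) spans chr12:7977648-8016835 on the plus strand, and Mttp (ENSMUSG00000028158) spans chr3:138089854-138144968 on the minus strand. Sar1b (ENSMUSG00000020386) is at chr11:51763687-51791925, plus strand, and Creb3l3 (ENSMUSG00000035041) at chr10:81084324-81098874, minus strand. RefSeq promoters (GRCm38.p6), from 250 bases before the transcription start to 50 after it, were given for 7 of the 8 genes, not for Apoc3, and were searched on both strands for short motifs. The 3 promoters with a match are shown, 5′ to 3′ on the strand of the gene, with the match in capitals.

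Apoa4 (chr9:46240594-46240893, plus strand): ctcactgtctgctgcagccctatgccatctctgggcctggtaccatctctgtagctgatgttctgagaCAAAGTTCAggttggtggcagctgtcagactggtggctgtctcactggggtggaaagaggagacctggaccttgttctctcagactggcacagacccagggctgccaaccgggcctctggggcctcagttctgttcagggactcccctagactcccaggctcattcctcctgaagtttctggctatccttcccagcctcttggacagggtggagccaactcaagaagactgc
Mttp (chr3:138143369-138143668, minus strand): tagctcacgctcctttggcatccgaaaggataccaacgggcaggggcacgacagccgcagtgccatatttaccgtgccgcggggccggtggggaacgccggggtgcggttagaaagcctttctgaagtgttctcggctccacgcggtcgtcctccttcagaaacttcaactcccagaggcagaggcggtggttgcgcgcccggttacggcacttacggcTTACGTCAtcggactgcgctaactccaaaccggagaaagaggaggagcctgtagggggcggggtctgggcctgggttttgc
Apob (chr12:7977427-7977726, plus strand): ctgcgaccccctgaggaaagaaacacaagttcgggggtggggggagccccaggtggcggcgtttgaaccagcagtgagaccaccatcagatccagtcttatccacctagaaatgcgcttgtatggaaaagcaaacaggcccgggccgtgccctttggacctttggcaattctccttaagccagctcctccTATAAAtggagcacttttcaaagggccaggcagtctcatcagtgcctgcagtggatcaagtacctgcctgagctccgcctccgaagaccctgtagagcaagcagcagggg

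The capitals in the Apoa4 promoter are CAAAGTTCA, a form of the element that nuclear receptors of the HNF4 type bind, with its first base at position −182 from the start. It occurs in 0.39% of the 32851 RefSeq promoters of the same length. In the Mttp promoter they are TTACGTCA, on the opposite strand the cyclic AMP response element TGACGTNA that CREB-family factors bind, at −31, a motif held by 2.93% of promoters. In the Apob promoter they are TATAAA, the TATA box, at −60, which 13.6% of promoters hold. The other HNF4 form, CAAAGNCCA (1.98% of promoters), the HNF1 element (0.399%) and the AT-rich core ATTAAA, searched for ARID3A (13.9%), were found in none of the 8 windows of these 7 genes, Creb3l3 having 2. A match is a string of letters in a window and no evidence of binding, and each of the 3 promoters holds 1 match. Only these exact strings were searched, so a window without a match may still hold another form of an element. The RefSeq starts of Apoa4, Apob and Mttp lie inside these genes as GENCODE draws them, so the positions hold for the RefSeq starts.

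Before the comparison, the libraries were checked. Totals of expected counts were 27050455 to 28152743 for WT animals and 28314069 to 31053622 for cKO animals, and a gene at 1 CPM (counts scaled to the TMM-normalized library size) rests on 26.4 to 29.9 counts. Arid3a fell from 2.42 ± 0.397 CPM (SD, n = 5) in WT to 0.673 ± 0.35 CPM (SD, n = 5) in cKO, a log2 fold change of −1.84 (standard error 0.32, edgeR adjusted p = 0.00204). The identifiers of the animals form 1 series per genotype, so colony or litter and genotype cannot be told apart. Markers named for enterocytes, Paneth cells and goblet cells were all detected. WT replicate 4 and, after it, WT replicate 3 had the lowest summed enterocyte markers of the series, 2207 and 3225 CPM, and results that rest on them are also given without them.

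All 8 lipoprotein genes were higher in Arid3a cKO than in WT crypts. The median of their log2 fold changes was 1.84, against −0.03 over the 14719 genes tested, and of those genes 28.3% were called at an adjusted p below 0.05 in the same edgeR fit, 15.6% higher and 12.7% lower. In 7 of the 8 the change passed the threshold and exceeded 1 on the log2 scale, as in 3.50% of tested genes. The 5 apolipoproteins rose by 3.56 to 4.18 times, Mttp and Creb3l3 by 2.57 and 2.87 times, and Sar1b by 1.61 times. In 7 of the 8 genes every cKO animal lay above every WT animal, a separation that 12.0% of tested genes showed in that direction and 7.63% in the other, and Apoa1 was the exception. No member was called lower, at an adjusted or an unadjusted p, and DESeq2 and limma-voom called the same number, 8 higher and 0 lower. Without the filter on low counts edgeR called 3 of the 8, with Apoa1, Apoa4, Apoc2, Apoc3 and Creb3l3 at adjusted p from 0.0515 to 0.0766, and without cKO replicate 5 it called 5, with Apoa1, Apoa4 and Apoc3 lost. Together the 8 genes took 0.0895 to 0.38% of all counts in WT libraries and 0.414 to 0.885% in cKO libraries. A larger share of enterocytes among the cells and more RNA of these genes per cell cannot be told apart in bulk crypts.

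**Figure D1:**
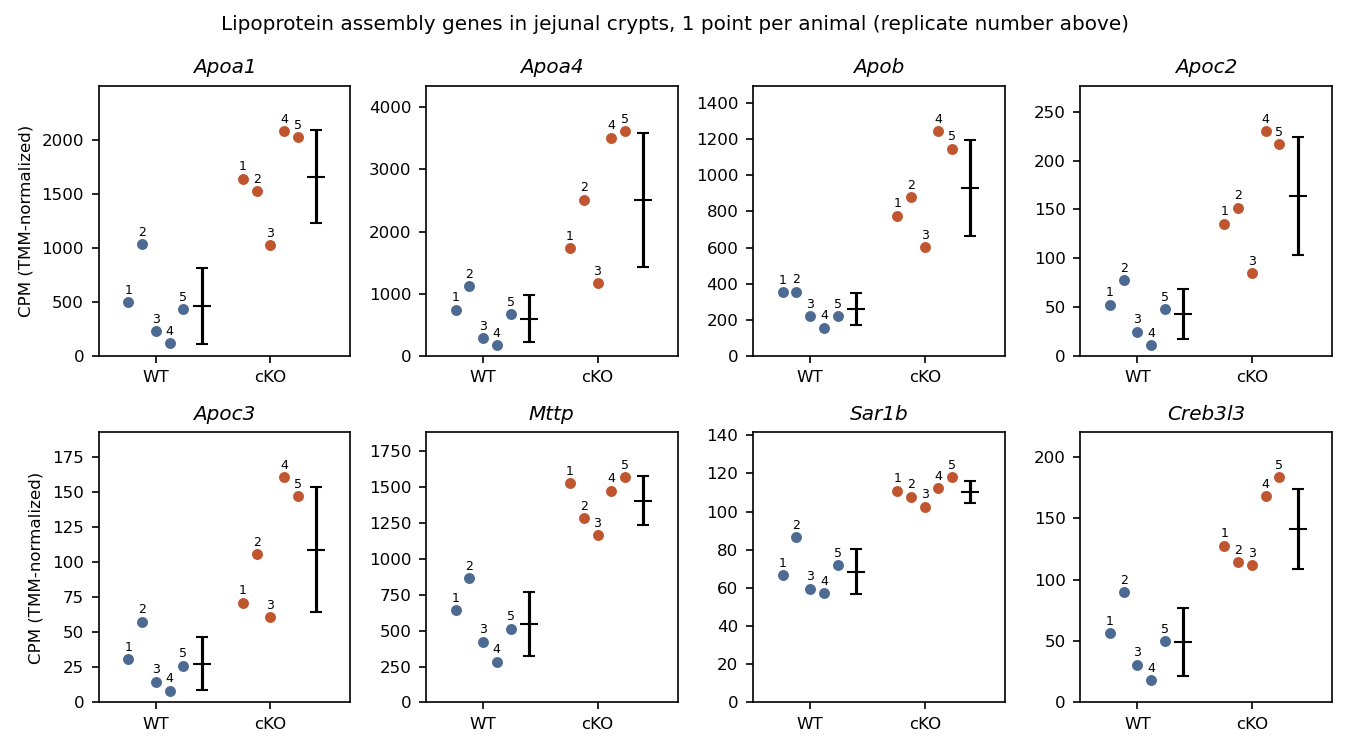
Level of each gene in CPM (linear axis from 0) in WT and Arid3a cKO crypts, 1 point per animal with its replicate number, and beside each group its mean ± SD (n = 5). In every panel WT replicate 4 is the lowest and WT replicate 2 the highest WT point, cKO replicate 3 is the lowest cKO point, and only in Apoa1 do the genotypes overlap.

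The structural apolipoproteins come first. Apob, the scaffold of the particle, was at 355, 357, 219, 157 and 220 CPM in WT replicates 1 to 5 and at 778, 879, 601, 1246 and 1148 CPM in cKO replicates 1 to 5. The lowest cKO animal stood 1.69 times above the highest WT animal, the widest gap of the 8 genes. Mean levels were 261 ± 89.9 and 930.5 ± 265 CPM (SD over 5 animals), and the log2 fold change was 1.83 (standard error 0.27, edgeR adjusted p = 0.00185), and the call held in each of the 23 alternatives tried. Apob is also where the length used by RSEM moved most between animals: its effective length, the number of positions at which a fragment can start averaged over 4 annotated transcripts, ran from 4550 to 7035 bases in WT and from 4978 to 5607 in cKO. With that length as an offset the log2 fold change was 1.94 (adjusted p = 0.00536).

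Apoa4, whose product intestinal cells secrete on chylomicrons, had the highest mean count of the 8 genes in each genotype, although Mttp exceeded it in WT replicates 3 and 4. Its WT values were 745, 1117, 290.4, 177 and 670 CPM, and its cKO values 1730, 2512, 1169, 3508 and 3617 CPM, in the order of the replicates. The genotypes did not overlap, but the lowest cKO animal was only 1.05 times the highest WT animal. Its means of 600 ± 377 and 2507 ± 1076 CPM (SD over 5 animals) gave a log2 fold change of 2.06 (standard error 0.53, edgeR adjusted p = 0.0198). Without cKO replicate 5 the change was 1.89 and the adjusted p, which rounds to 0.05, missed the threshold.

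Apoa1 encodes the main protein of high-density lipoprotein and is a component of new chylomicrons. It was at 500.2, 1031, 228, 115 and 433 CPM in WT and at 1641, 1525, 1022, 2081 and 2021 CPM in cKO animals. WT replicate 2 lay just above cKO replicate 3, and the WT animals spread 8.96-fold from lowest to highest, more than for any other of the 8 genes, against 2.04-fold in cKO. The difference, 461 ± 354 against 1658 ± 428 CPM (SD, n = 5 each), was 1.85 on the log2 scale (standard error 0.53, edgeR adjusted p = 0.0296). This was the least secure of the 8 calls: it was lost in 7 of the 10 fits that left out 1 animal, namely those without any one of WT replicates 1, 3 and 5 and cKO replicates 1, 2, 4 and 5, at log2 fold changes from 1.67 to 1.88.

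The genes for the lipase cofactor and for its antagonist moved by nearly the same amount. Apoc2 was at 52.6, 77.5, 24.7, 11.2 and 47.8 CPM in WT and at 135, 152, 84.6, 230.4 and 217 CPM in cKO animals. Its means of 42.8 ± 25.8 and 164 ± 60.2 CPM (SD, n = 5 each) differed by 1.94 on the log2 scale (standard error 0.50, edgeR adjusted p = 0.0195, or 0.0515 without the filter on low counts). Apoc3 was at 30.9, 57.6, 14.8, 8.34 and 26.2 CPM in WT and at 71.2, 106, 60.6, 160.4 and 147 CPM in cKO animals. In both genes the lowest cKO animal was close to the highest WT animal, at 1.09 times for Apoc2 and 1.05 times for Apoc3. The Apoc3 means were 27.6 ± 19.0 and 109 ± 44.4 CPM (SD, n = 5 each), with a log2 fold change of 1.98 (standard error 0.51, edgeR adjusted p = 0.0204), which became 1.85 with an adjusted p of 0.0514 without cKO replicate 5. The log2 ratio of Apoc2 to Apoc3 within a library was 0.63 ± 0.21 in WT and 0.60 ± 0.18 in cKO (SD, n = 5 each), a difference of −0.03 (two-sided exact permutation test, p = 0.762).

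Mttp, whose product loads the lipid, stayed within a narrow range in cKO animals. Its WT values were 642, 866, 424, 285 and 515 CPM and its cKO values 1526, 1285, 1167, 1476 and 1567 CPM. The cKO animals lay within 1.34-fold of each other and all at least 1.35 times above the highest WT animal. From 546 ± 221 to 1404 ± 171 CPM (SD, n = 5 each) the log2 fold change was 1.36 (standard error 0.25, edgeR adjusted p = 0.00444), and it passed the threshold in all 23 alternatives.

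Sar1b, the GTPase of the carrier, had the smallest change and the smallest error. It was at 66.8, 86.7, 59.6, 57.4 and 71.8 CPM in WT and at 111, 108, 103, 112 and 118 CPM in cKO animals. Its coefficient of variation was 17.1% in WT and 5.11% in cKO, the lowest of the 8 genes in each genotype. The rise from 68.5 ± 11.7 to 110.3 ± 5.63 CPM (SD, n = 5 each) was 0.69 on the log2 scale (standard error 0.10, edgeR adjusted p = 0.00114), and held in all 23 alternatives. Its paralog Sar1a, with which it may share reads that RSEM then divides, was at 93.9 ± 5.38 and 89.1 CPM and did not pass the test (log2 fold change −0.08, standard error 0.06, edgeR adjusted p = 0.363). The log2 ratio of Sar1b to Sar1a ran from −0.79 to −0.05 in WT and from 0.15 to 0.44 in cKO libraries, so Sar1a was the higher in every WT animal by count and Sar1b in every cKO animal. Counts are not scaled to length. Per length, Sar1b had the higher mean in both genotypes, at 79.7 against 63.1 TPM in WT and 120.8 against 56.5 TPM in cKO. The difference of 0.77 had the smallest p that 252 assignments of the animals allow, 0.00794 (two-sided exact permutation test), and an adjusted p of 0.0595 over 15 ratios.

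Creb3l3, the regulator among the 8 genes, was the lowest per length. It was at 56.6, 90.2, 30.9, 18.1 and 50.01 CPM in WT and at 128, 115, 112, 168 and 183 CPM in cKO animals, without overlap. The means of 49.1 ± 27.6 and 141 ± 32.6 CPM (SD, n = 5 each) differed by 1.52 on the log2 scale (standard error 0.39, edgeR adjusted p = 0.0191, or 0.0524 without the filter on low counts). Of the other genes known as CREB3L3 targets, Cidec, a lipid droplet protein, was the only 1 of 4 expressed enough to be tested and was higher in cKO at 22.2 against 8.72 ± 4.29 CPM (log2 fold change 1.35, standard error 0.31, edgeR adjusted p = 0.0103). The other three, Fgf21, Apoa5 and Hamp, had means below 0.1 CPM in both genotypes and were not tested.

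**Figure D2:**
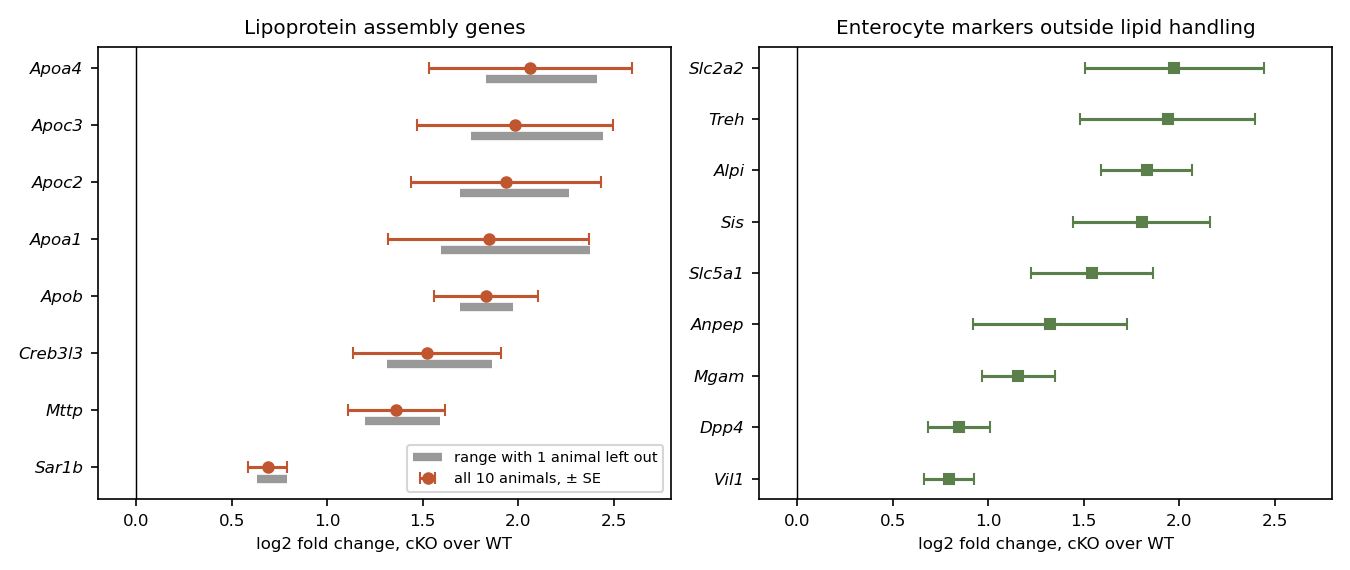
Log2 fold change of cKO over WT with its standard error from the edgeR fit, for the 8 lipoprotein genes (left, circles) and 9 of the 10 enterocyte markers (right, squares), and for the former the range over 10 fits with 1 animal left out (grey bars). All 8 ranges stay above 0, from 0.63 for Sar1b at the lowest to 2.44 for Apoc3 at the highest, and both gene groups span about the same values.

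Compared per length, the order of the 8 genes was nearly the same in both genotypes. In TPM, the authors' length-scaled share of each library, the WT means ran from Apoa1 at 632 ± 470 through Apoa4 (443 ± 271), Mttp (182 ± 69.5), Apoc2 (111 ± 64.9), Apoc3 (88.9 ± 59.6), Sar1b (79.7 ± 11.0) and Apob (60.4 ± 26.1) to Creb3l3 at 29.9 ± 15.6 (SD, n = 5). Each gene exceeded the next in all 5 WT animals except Apoc3, which exceeded Sar1b in 3 of 5, so these neighbours did not differ beyond their spread. The cKO means were 2159 ± 604 TPM for Apoa1, 1769 ± 784 for Apoa4, 439.8 ± 61.5 for Mttp, 406 ± 159 for Apoc2, 337 ± 147 for Apoc3, 218 ± 76.2 for Apob, 121 ± 8.35 for Sar1b and 82.8 ± 19.95 for Creb3l3 (SD, n = 5). Here Mttp exceeded Apoc2 in 3 of 5 animals, and every other neighbour held its place in 5 of 5. Apob and Sar1b changed places between the genotypes: Sar1b was above Apob in 5 of 5 WT animals and below it in 5 of 5 cKO animals. In WT replicate 2 these genes were nearly level, at 98.05 TPM for Sar1b and 97.18 TPM for Apob. The TPM of Apob also rests on its effective length, which differed between animals. Summed over the 8 genes, the libraries held 595 to 3103 TPM in WT and 3160 to 7678 TPM in cKO.

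**Figure D3:**
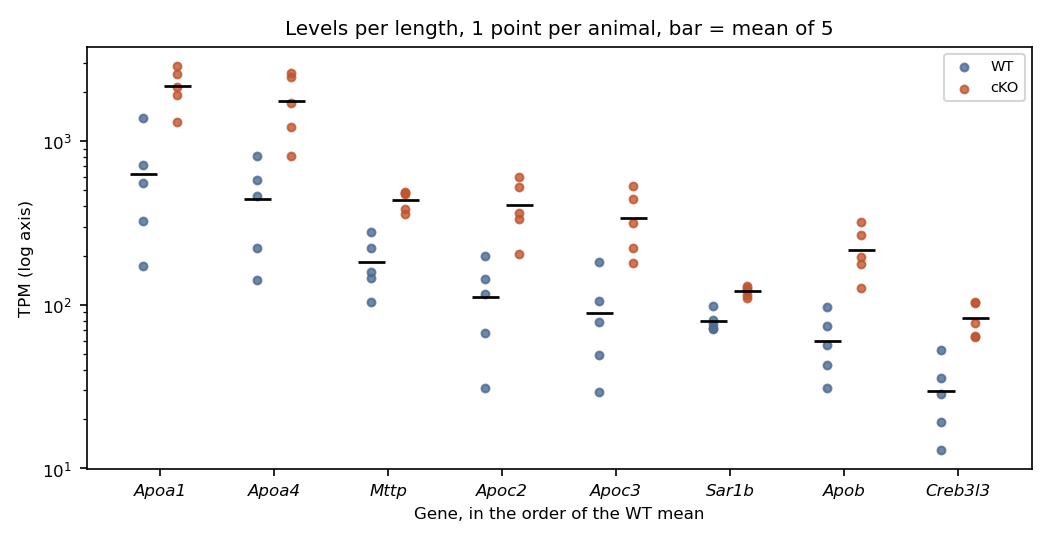
TPM of each gene (log axis), in the order of the WT means, 1 point per animal with WT on the left and cKO on the right of each pair and a bar at the mean of 5. The WT points of Apoa1 run from 172 to 1384 TPM and those of Sar1b from 70.8 to 98.1 TPM, a narrow band beside the others.

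The animals fell in one order in gene after gene. Among WT animals, replicate 4 was the lowest, replicate 3 the next and replicate 2 the highest in all 8 genes, and among cKO animals replicate 3 was the lowest in all 8 and replicates 4 and 5 shared the highest place with 4 genes each. The order was read from these 8 genes, so their full count is a description. Over all tested genes 2.68% held the same order, over the genes called higher in cKO 14.4%, and of 10 enterocyte markers outside lipid handling 6. Among cKO animals Arid3a was also highest in replicates 4 and 5, at 0.884 and 1.17 CPM against 0.303 to 0.516 CPM in the others. These values rest on few counts, 26 and 31 against 9 to 14. Cells outside the epithelium kept Arid3a, so the counts need not come from epithelial cells. The part of Arid3a in the order was not tested. With WT replicates 3 and 4 both left out, 7 of the 8 genes were called higher, and Apoc3 was not (log2 fold change 1.51, edgeR adjusted p = 0.0600). With WT replicate 4 and cKO replicate 3 left out, all 8 were.

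**Figure D4:**
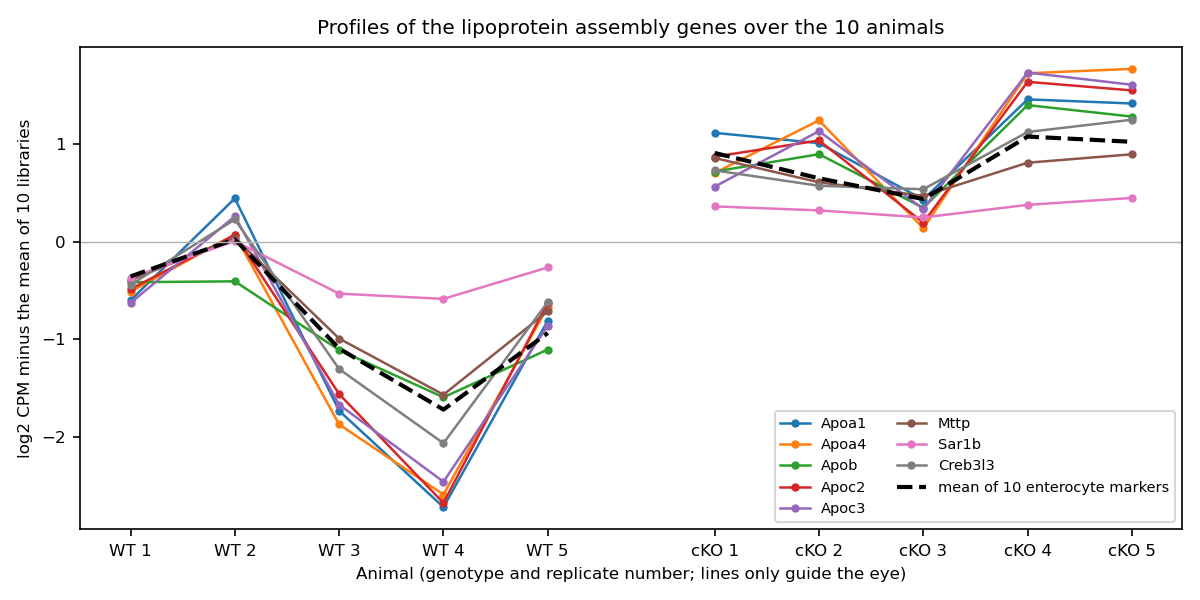
Log2 CPM (pseudocount 0.5) of each gene less its mean over the 10 libraries, for 5 WT and 5 cKO animals, with the mean of 10 enterocyte markers as a dashed line. The lines dip together at WT replicate 4 and cKO replicate 3, and Sar1b moves least.

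The likeness of these profiles was measured as the root-mean-square difference of centred log2 CPM over the 10 libraries, where 0 is an identical profile. It is not scaled to the size of a gene's changes, so a gene that moves little, such as Sar1b, can have small differences for that reason. Among the 8 genes, Apoa4 was closest to Apoc2 (0.15) and Apoc3 (0.16), and Apoc2 and Apoc3 differed by 0.18. Among 9200 other genes with a mean of at least 10 CPM, Apoa1 was nearest to Spink1, a trypsin inhibitor, at 0.0803, then to Pdzk1 and Ggt1. Apoa4 was nearest to Bst1, Bbox1 and Lct, the last of which encodes the brush border enzyme lactase. Apob was nearest to Fam213a (0.0874), Mme and Cyp4b1, Apoc2 to Treh, 2010106E10Rik and Lct, and Apoc3 had Bbox1 and Pdzk1 among its nearest. Mttp was nearest to Sult1b1 (0.066), Btnl1 and Ces2e, and Creb3l3 to Fmo5, Ube2l6 and Krt20. Sar1b was nearest to P4hb (0.0543), Fbxo8 and Marc2. P4hb encodes protein disulfide isomerase, the partner subunit that keeps the Mttp protein soluble.

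Markers of the absorptive cell moved with the lipoprotein genes. All 10 enterocyte markers outside lipid handling were called higher in cKO, as were 15.6% of all tested genes. Their median log2 fold change was 1.67, and their summed level was 2207 to 6427 CPM in WT and 8312 to 12240 CPM in cKO libraries. Among the larger changes were those of the glucose transporter Slc2a2 (1.98, standard error 0.47, edgeR adjusted p = 0.0146) and the disaccharidase Treh (1.94, 0.46, adjusted p = 0.0141). Anpep, the most abundant per length, rose by 1.32 (standard error 0.40, edgeR adjusted p = 0.0376), a call lost, at 1.18 to 1.37, when any of WT replicates 1, 3 and 5 and cKO replicates 1, 2, 4 and 5 was left out. Of 5 villus tip markers 3 were higher (Enpp3 2.43, Aspa 1.97 and Ada 1.15 on the log2 scale), their sum being 69.7 to 153 CPM in WT and 179 to 537 CPM in cKO. The Ada call was lost, at 0.77 to 1.25, on leaving out any of WT replicates 1, 3, 4 and 5 and cKO replicates 2, 4 and 5. The part of these cells in the rise of the lipoprotein genes was not tested beyond the ratios that follow.

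Each gene was set against the mean of the 10 enterocyte markers in the same library, a ratio that scaling between libraries leaves alone. On this scale Apoa4 was higher in cKO by 0.59, Apoa1 by 0.53, Apoc3 by 0.51, Apoc2 by 0.48, Apob by 0.22 and Creb3l3 by 0.05, with SDs of 0.16 to 0.57 within a genotype, and none of these passed the two-sided exact permutation test after adjustment over 15 ratios (adjusted p from 0.194 to 0.816). Mttp was lower, with a difference of −0.18 (p = 0.0397, adjusted p = 0.194, exact permutation test). Sar1b was lower, with a difference of −0.93 and with ratios of −2.37 to −1.22 in WT and −3.05 to −2.54 in cKO libraries that did not overlap (p = 0.00794, the smallest possible, adjusted p = 0.0595, exact permutation test). The size depended on the reference. Against the villus tip markers no gene passed, and Mttp was higher by 0.16. Vil1, a microvillus gene, had the smallest rise of the 10 enterocyte markers, 0.80. A gene that rose more than Vil1 comes out higher against it, so the direction there follows from the choice of reference. Against Vil1 alone 7 genes were higher, by 0.65 for Mttp to 1.43 for Apoa4 (exact permutation test, adjusted p from 0.0298 to 0.0446), and Sar1b was not. Among the apolipoproteins themselves the ratio of Apoa4 to Apoa1 differed by 0.06 (p = 0.738), that of Apoc3 to Apoa1 by −0.02 (p = 0.913) and that of Apob to Apoa1 by −0.31 (p = 0.389, all by exact permutation). The last ran from −1.53 to 0.44 over the WT libraries, and its difference from −0.57 to −0.07 with 1 animal left out.

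**Figure D5:**
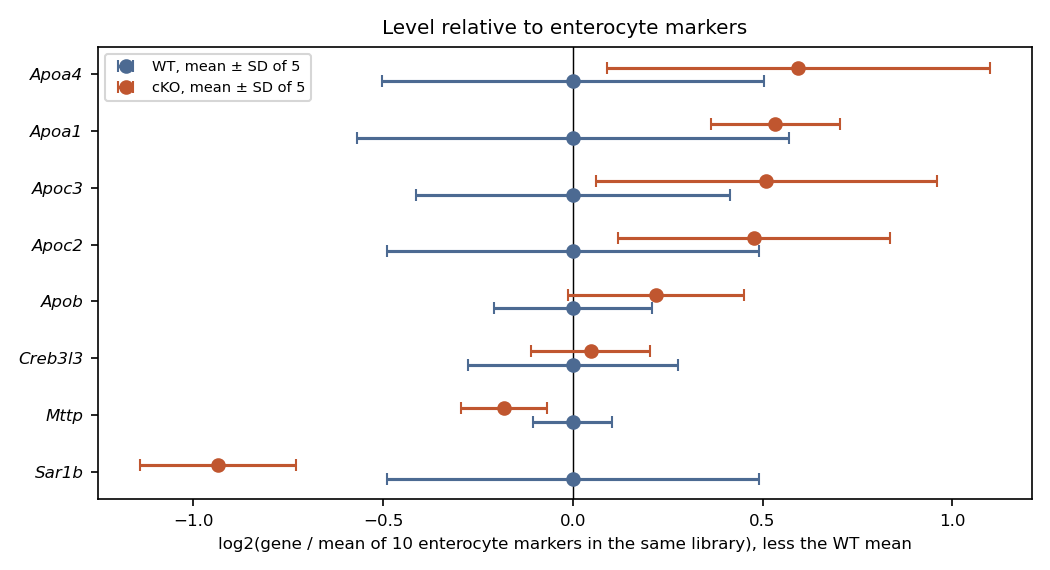
Level of each gene relative to the mean of 10 enterocyte markers in the same library, as log2 less the WT mean, with the SD over 5 WT (blue) and 5 cKO animals (orange). The cKO means run from 0.59 for Apoa4 to −0.93 for Sar1b, and only for Sar1b are the animals of each genotype fully apart.

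The pathway around the 8 genes was read from 7 lists with 73 distinct genes, of which 61 were tested, 29 were called higher and 0 lower by edgeR, 6 being lower at an unadjusted p below 0.05. The shares over all tested genes were 15.6% higher and 12.7% lower. Lower were 3 of the list genes by DESeq2, 2 by limma-voom, 6 on library size only and 7 on the TPM scale. Of genes that act with Apob and Mttp in the endoplasmic reticulum 9 of 9 were higher (6 of 9 without cKO replicate 5), with a median log2 fold change of 0.62. Among them were the lipid droplet protein Cideb (1.34, standard error 0.35, edgeR adjusted p = 0.0203), lost at 1.28 without cKO replicate 5, and Tm6sf2, a membrane protein needed for lipid loading (1.19, 0.29, adjusted p = 0.0141). Prap1, which binds triglyceride and aids Mttp, rose from 367 ± 97.1 to 720 CPM (0.97, standard error 0.18, edgeR adjusted p = 0.0038).

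Of 18 genes of the COPII coat and of carrier fusion, 8 were higher and 10 not called, with a median of 0.16. Of all tested genes 15.6% were called higher. Among the coat subunits Sec23a rose by 1.11 (standard error 0.17, edgeR adjusted p = 0.00149) while Sec23b did not pass (0.04, standard error 0.07, adjusted p = 0.641), and Sec24d rose by 0.98 (standard error 0.16, adjusted p = 0.00188) while Sec24c did not (0.07, 0.06, adjusted p = 0.418). The differences between these paralogs were not tested. The scaffold Sec16b rose by 0.78 (standard error 0.14, edgeR adjusted p = 0.00224), and Sec13, the most abundant per length, was at 179 ± 27.5 and 190.2 CPM (0.09, standard error 0.11, adjusted p = 0.551), a value whose sign turned under other scalings.

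Apob mRNA is edited in the gut, where the deaminase APOBEC1 makes a stop codon that shortens the protein to its intestinal form. Apobec1 was at 13.8 ± 4.50 CPM in WT and rose to 28.2 CPM in cKO (log2 fold change 1.04, standard error 0.20, edgeR adjusted p = 0.00406), and its RNA-binding partners A1cf (0.37, 0.11, adjusted p = 0.0215) and Rbm47 (0.37, 0.06, adjusted p = 0.00138) by less. A1cf was lost at 0.31 without cKO replicate 5 and at 0.24 on library size only, and on the TPM scale A1cf and Rbm47 did not pass. Gene-level counts do not separate edited from unedited Apob.

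Of 15 regulators of lipoprotein genes 6 were higher and 0 lower by edgeR, with 3 lower at an unadjusted p below 0.05 and 2 by DESeq2, and a median of −0.02. Over all tested genes edgeR called 15.6% higher and 12.7% lower. On library size only 5 were higher and 5 lower, and on the TPM scale 5 and 3. Without cKO replicate 5 the number higher was 3. The coactivator Ppargc1a rose by 1.26 (standard error 0.17, edgeR adjusted p = 0.000991) and Hnf4g, a nuclear receptor of the enterocyte, by 1.05 (standard error 0.14, adjusted p = 0.000926). Its relative Hnf4a, the most abundant, was at 1151 ± 68.2 and 1040 CPM (−0.15, standard error 0.07, edgeR adjusted p = 0.12) and was called lower by DESeq2, on library size and on the TPM scale. The bile acid receptor Nr1h4 was higher by 0.62 (standard error 0.19, edgeR adjusted p = 0.0336), a call lost at 0.50 to 0.62 on leaving out any of WT replicates 1, 3 and 4 and cKO replicates 1 and 5.

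The other apolipoproteins and the genes of lipoprotein clearance are read against the 15.6% of all tested genes called higher and the 12.7% called lower. Of 11 other apolipoprotein genes 4 were tested, with a median log2 fold change of −0.68. Of these 2 were lower at an unadjusted edgeR p below 0.05, though none at the adjusted threshold. Only Apoa2 was called higher, at 0.592 ± 0.192 and 1.05 CPM (log2 fold change 0.82, standard error 0.26, edgeR adjusted p = 0.0347). That call was lost at 0.67 to 0.85 on leaving out any of WT replicates 3 and 4 and cKO replicates 1, 2, 4 and 5. Apoe, made by many cells outside the epithelium, averaged 46.2 ± 15.4 CPM in WT crypts against 20.2 CPM in cKO crypts and did not pass (−1.19, standard error 0.51, edgeR adjusted p = 0.111), though it did by limma-voom, on the TPM scale and, at −1.77, without cKO replicate 4, where 2 genes of the list were lower. Of 14 genes of lipolysis and lipoprotein receptors 11 were tested and only the receptor Lrp1 was higher (0.45, standard error 0.13, edgeR adjusted p = 0.0238), lost at 0.40 to 0.42 on leaving out WT replicate 4, cKO replicate 4 or cKO replicate 5.

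Neighbouring genes were called about as often as all tested genes, of which 28.3% were called. Within 100 kb of the chromosome 9 cluster 5 other genes were tested, with log2 fold changes from −0.36 to 0.39, of which 0 were higher and 1, Zpr1, lower (−0.36). Apoa5, the cluster's liver gene, was at 0.0139 and 0.0553 CPM in WT and in cKO crypts and was not tested. Around Apoc2 9 other genes were tested, of which 1, Relb, was higher by 0.30 and 2, Tomm40 and Bcam, were lower (−0.33 and −0.73). Apoc1, at 0.0282 and 0.0208 CPM in WT and in cKO crypts, and Apoc4, at 0 and 0.00757 CPM, were not tested. Antisense transcripts that overlap Apoa4 (Gm10680 and Gm47528) averaged at most 3.26 TPM against 1106 TPM for Apoa4, the readthrough gene Gm44805 averaged 3.94 TPM against 259 TPM for Apoc2, and Trmt10a and Gm43691, opposite Mttp, at most 5.45 TPM against 311 TPM. The strand setting of the counting is not given in the sources used here.

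Other cell types were followed with their markers, to be read beside the 15.6% of all tested genes called higher and the 12.7% called lower. All 5 Paneth cell markers were lower in cKO, with a median of −0.72 and a summed level of 13930 to 20910 CPM in WT and 9046 to 12270 CPM in cKO, among them Mptx2 (−1.29), Mmp7 (−1.01), Defa30 (−0.72) and Defa24 (−0.54). Mptx2 was no longer called, at −1.32 to −1.16, when WT replicates 1 or 3 or cKO replicate 3 were dropped in turn. Goblet markers, led by Zg16 (0.59, edgeR adjusted p = 0.225), were called in 0 of 5, with 1 higher at an unadjusted p below 0.05, by DESeq2 and without WT replicate 5, and summed to 2453 to 3431 CPM in WT and 3279 to 3986 CPM in cKO. All 5 enteroendocrine markers were higher at an unadjusted edgeR p below 0.05, with a median log2 fold change of 0.44. At the adjusted threshold 2 were higher, Chgb by 0.43 and Chga by 0.42. The Chga call was lost in 8 of the 10 fits with 1 animal left out (0.27 to 0.47). These were the fits without any WT animal or cKO replicate 1, 4 or 5. On library size only and on the TPM scale neither Chgb nor Chga was called (Chgb at 0.30 on library size), and DESeq2 called 3 of the list. Their sum was 345 to 412 CPM in WT and 462 to 682 CPM in cKO.

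The marker lists for cells outside the epithelium each summed to at most 131 CPM, and the stromal list varied most between animals. Over all tested genes 15.6% were called higher and 12.7% lower. Stromal markers, led by Dcn (−1.05, edgeR adjusted p = 0.399), were called in 0 of 5, also at an unadjusted p, though in 3 of 5 as lower without cKO replicate 4, and summed to 7.64 to 80.5 CPM in WT and 8.46 to 131 CPM in cKO. Of 3 tested endothelial and lacteal markers Pecam1 was lower (−1.19, standard error 0.28, adjusted p = 0.00984), and Lyve1 was not called (0.26, adjusted p = 0.197), the list summing to 7.27 to 10.03 CPM in WT and 6.82 to 9.84 CPM in cKO. Of 7 immune markers Jchain was lower (−1.95, standard error 0.30, edgeR adjusted p = 0.00196), and the list median was −0.67. This 1 of 7 is near the share of all tested genes called lower. At an unadjusted edgeR p below 0.05, lower were 3 of the 7. In 8 of the 23 alternatives 2 were called lower. Among these were DESeq2, library size only and the fits without WT replicate 2, cKO replicate 4 or cKO replicate 5. The sums of the immune list were 69.5 to 125 CPM in WT and 35.9 to 83.7 CPM in cKO. Of 5 markers of hepatocytes, which also make apolipoproteins, Fgb was at 0 in both genotypes and Alb at 0.885 and 1.17 CPM. Ttr, at 16.5 and 19.3 CPM, was not called (0.23, adjusted p = 0.369), and neither tested marker of that list passed at an unadjusted p.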

How the data were processed

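Sequencing libraries of polyadenylated RNA were made by the authors with a KAPA mRNA HyperPrep kit from crypts of 5 WT and 5 cKO mice. The reads were processed with nf-core/rnaseq, with STAR for alignment and RSEM for quantification against Ensembl annotation of GRCm38. For each library the authors deposited the expected count (RSEM's estimate, in which reads matching several genes are divided among them), not normalized between libraries, the TPM, scaled to length and library, and the effective length. FPKM values were not used.

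Tests were run with edgeR 4.0.16 (R 4.3.3) on rounded expected counts: filterByExpr by genotype (minimum count 10, minimum total 15), TMM and the robust quasi-likelihood test over 14719 genes, with Benjamini-Hochberg adjustment and a threshold of 0.05. All 10 libraries entered 1 fit with genotype as the only term. Standard errors are the log2 fold change divided by the root of the F statistic. Log2 ratios within a library (CPM, pseudocount 0.5) went into a two-sided exact permutation test over all 252 assignments, adjusted over 15 ratios. TPM were used as deposited, for levels of genes compared per length.

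The 8 genes and the lists around them were chosen with earlier results of these data known, so a count of list members is a description, and no test was made of a list. From each list, the text names up to 3 called genes with the largest absolute log2 fold change and the most abundant gene by TPM, besides Arid3a, the 8 genes and, for likeness, the 3 nearest genes. A gene that meets this rule is not reported here, though it stays in the lists and tests. Other genes named (neighbours, overlapping genes, untested list members, Alb, Sar1a, Sec23b, Sec24c and Vil1) were added after their values were seen.

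Other settings tried were limma-voom, DESeq2 1.42.0, scaling by RLE or by library size alone, omission of the filter on low counts, a floor of 10 counts in each library, expected counts without rounding, an effective-length offset, limma 3.58.1 on log2(TPM + 1) and log2(TPM + 0.1), the replicate number as a block, and each animal left out. Exclusion of WT replicates 3 and 4, or of WT replicate 4 and cKO replicate 3, was chosen after seeing the data. No pair of libraries was within counting noise of each other. The labels name replicates and each carries its own animal identifier. Depth limits genes near 1 CPM, whereas for the abundant genes the spread between animals sets the error.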

Additional observations from a re-analysis of the deposited data

How the results depend on the processing

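Every alternative left all 8 genes higher in cKO, and Apob, Mttp and Sar1b passed the threshold in all 23, with log2 fold changes of 1.58 to 1.97, 1.06 to 1.59 and 0.56 to 0.79. Without the filter on low counts, where 27960 genes were tested, 3 of the 8 were called higher, and Apoa1 (log2 fold change 1.84, edgeR adjusted p = 0.0766), Apoa4 (2.06, 0.0528), Apoc2 (1.93, 0.0515), Apoc3 (1.98, 0.0540) and Creb3l3 (1.52, 0.0524) were not. The replicate numbers did not pair the animals: deviations of same-numbered animals correlated at −0.16 to 0.13, and none correlated best with its own number. With the replicate block 3 of the 8 were called, and Apoa1 (2.14, adjusted p = 0.0574), Apoa4 (2.18, 0.0517), Apoc2 (2.06, 0.0617), Apoc3 (2.12, 0.0599) and Creb3l3 (1.68, 0.0571) were not. Leaving out 1 animal gave 5 to 8 calls, the 5 without cKO replicate 5, with ranges of 1.60 to 2.38 for Apoa1, 1.83 to 2.42 for Apoa4 and 1.75 to 2.44 for Apoc3. Both WT replicates 3 and 4 excluded, Apoc3 was at 1.51. Over all genes, 4030 were lower on library size only (10.5% higher and 27.4% lower against 15.6% and 12.7%, with a shift of the median by −0.13), 1191 with the block, 1131 to 2112 with 1 animal left out (1131 without WT replicate 4), 671 with WT replicates 3 and 4 and 895 with WT replicate 4 and cKO replicate 3 excluded, against 1869. Higher were 1420 at log2(TPM + 1), 1405 at log2(TPM + 0.1) (9.55% higher, 18.6% lower, shift −0.10) and 1472 without WT replicates 3 and 4, against 2298. Pathway genes called lower were 3 by DESeq2, 6 on library size, 2 by limma-voom, 7 by either TPM scale, 1 with the block and 0 to 2 with 1 animal left out. Sec13 turned to −0.0393 on library size and −0.0048 on both TPM scales. Ratios near 0 turned sign: Apoc3 to Apoa1 was 0.0001 from TPM, Apoc2 to Apoc3 was 0.037 and Creb3l3 to the enterocyte markers −0.0314 at a pseudocount of 5, and Mttp was 0.16 against villus tip markers. With 1 animal left out the ranges were −0.0249 to 0.17 for Apoa4 to Apoa1, −0.11 to 0.0232 for Apoc2 to Apoc3, −0.10 to 0.11 for Apoc3 to Apoa1 and −0.0326 to 0.13 for Creb3l3. Against Vil1 alone the differences were 1.37 for Apoa1, 1.43 for Apoa4, 1.05 for Apob, 1.31 for Apoc2, 1.34 for Apoc3, 0.65 for Mttp and 0.88 for Creb3l3. The cause was not tested for any of these, apart from the number of genes or animals that an alternative itself changes.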
